A study of Mus musculus with 16 samples.

Results

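PAC1, the protein made from Dusp2, belongs to the dual-specificity phosphatases, and 10 genes of that family were followed in raw read counts from mouse lung group 2 innate lymphoid cells (ILC2s): Dusp1, Dusp2, Dusp4, Dusp5, Dusp6, Dusp7, Dusp10, Dusp14, Dusp16 and Dusp22. They were listed by name, not by their values, although earlier results of these data were known when they were chosen. All 10 were present among the 51912 genes of the count table. The questions were which of these phosphatases ILC2s express, how they respond to the added stimuli, and whether any was higher where Dusp2 was lost. ILC2s from WT (Pac1+/+) and Pac1-/- mice of 6 to 8 weeks on a C57BL/6J background were first expanded in IL-2 and IL-7, so that all groups share this culture. They were then held for 4 h with IL-7 at 100 ng/mL alone or together with the alarmin IL-33 at 100 ng/mL, IL-33 plus the neuropeptide CGRP at 500 ng/mL, or IL-33 plus the neuropeptide NMU at 500 ng/mL. In what follows "IL-33", "CGRP" and "NMU" name the groups with IL-7 plus IL-33 and, for the last 2, that neuropeptide. Genotype and treatment made 8 groups of 2 libraries, 16 libraries in all, each from about 500 sorted cells. Nothing in the labels says that the 2 libraries of a group came from separate animals or cultures, so P values measure only the spread between these libraries, which may be technical.

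Mitogen-activated protein kinases (MAPKs) carry signals from cytokine and G protein-coupled receptors and are switched on by phosphorylation of a threonine and a tyrosine. Dual-specificity phosphatases remove both phosphates and so switch the kinases off, and several of them are themselves induced by the signal they end. Dusp1, Dusp2, Dusp4 and Dusp5 encode inducible enzymes of the nucleus, of which DUSP5 acts on ERK alone, whereas DUSP6 and DUSP7 act on ERK in the cytoplasm. DUSP10 and DUSP16 prefer the stress kinases p38 and JNK, and DUSP14 and DUSP22 are small atypical members, both known from T cell receptor signaling. PAC1 was first known as a phosphatase of activated lymphocytes.

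Between 6764992 and 15963357 reads per library fell on genes, so that 3 counts, taken here as the floor of detection, equaled 0.170 to 0.462 CPM (reads of a gene over the library total, scaled by edgeR's TMM factors). The floor covers counting error only, since amplified reads without molecular identifiers are not independent molecules. All 8 ILC2 markers were counted in every group, with summed levels of 5145 to 6973 CPM, and Tbx21, which defines ILC1s and NK cells, had no count in any library. Both WT NMU libraries carried transcripts of lung epithelium, with Sftpc at 178.5 and 94.5 CPM (at most 0.191 CPM elsewhere), and of Lyz2, which macrophages and alveolar type 2 cells both express, at 112.0 and 27.9 CPM (at most 1.29 CPM elsewhere). The 5 epithelium markers summed to 331 and 188 CPM there, in the same order, and to 11.1 to 83.2 CPM in the other groups. The 8 myeloid markers summed to 123 and 39.6 CPM there and to 1.19 to 15.95 CPM in the other groups. Sftpb and S100a8 were at 0 throughout. Of the myeloid markers Lyz2 alone was raised in the WT NMU libraries, where Csf1r, Itgam and Marco were at 0, Adgre1 at 0 and 0.890 CPM, and Cd68 at 11.4 and 10.8 CPM, within its range of 0 to 15.8 CPM. Both Pac1-/- CGRP libraries carried B cell transcripts: the 4 B cell markers summed to 270 and 280 CPM, against 0 to 78.0 CPM in the other groups, and Ms4a1 reached 84.4 and 75.0 CPM. The second Pac1-/- IL-33 library stood apart within its treatment, with Gata3 at 1118 CPM against 563 to 677 CPM in the other 3. Calls that rest on the WT NMU or Pac1-/- CGRP libraries are also given without them. In bulk RNA a change in the number of cells of a type cannot be told apart from a change in RNA per cell.

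Dusp2, the gene deleted in Pac1-/- mice (chromosome 2, 127336159 to 127338376, plus strand, GRCm38), was counted in only 2 libraries. The second WT IL-7 library held 57 reads (5.22 CPM) and the first WT NMU library held 29 reads (4.46 CPM). The other 6 WT libraries and all 8 Pac1-/- libraries held none. The zeros of Pac1-/- libraries match their labels, but detection in 2 of 8 WT against 0 of 8 Pac1-/- libraries could not reach the threshold: its P of 0.467 (two-sided Fisher's exact test) is the smallest that 2 detecting libraries among 16 allow. At this depth most WT libraries could not be told from knockout libraries by this gene. Dusp2 passed the filter on low counts only in the comparison over all 16 libraries, where its adjusted P value was 0.803.

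Per length, Dusp5 had the highest mean level of the 10 genes over the 16 libraries, at 29.1 ± 18.7 CPM per kb of exon (SD, n = 16). Dusp6 followed at 15.1 ± 12.2 CPM per kb, then Dusp1 at 14.8 ± 14.1 and Dusp10 at 6.94 ± 5.87 CPM per kb. These 4 were the only members with at least 3 counts in every library. The next group was far lower and patchy: Dusp14 at 2.13 ± 3.53 CPM per kb with at least 3 counts in 6 of 16 libraries, and Dusp22 at 1.83 ± 1.73 CPM per kb in 13. Dusp7 averaged 0.682 ± 0.775 CPM per kb and was detected in 13 libraries, and Dusp16 averaged 0.499 ± 0.804 CPM per kb and was detected in 10. Dusp2 averaged 0.302 ± 0.83 CPM per kb in 2 libraries and Dusp4 averaged 0.285 ± 0.536 CPM per kb in 5. No neighbors in this order differed by more than the larger of their SDs, and Dusp1 moved ahead of Dusp6, Dusp22 ahead of Dusp14, and Dusp16 ahead of Dusp7 when the longest transcript was used as the length. Set among 17 other dual-specificity phosphatase genes, only Dusp11, which encodes a phosphatase of RNA, averaged above Dusp6, at 15.5 ± 3.03 CPM per kb. In each library Dusp1, Dusp5 and Dusp6 together held 53.8% to 93.5% of the summed level per length of the 10 genes.

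**Figure D1:**
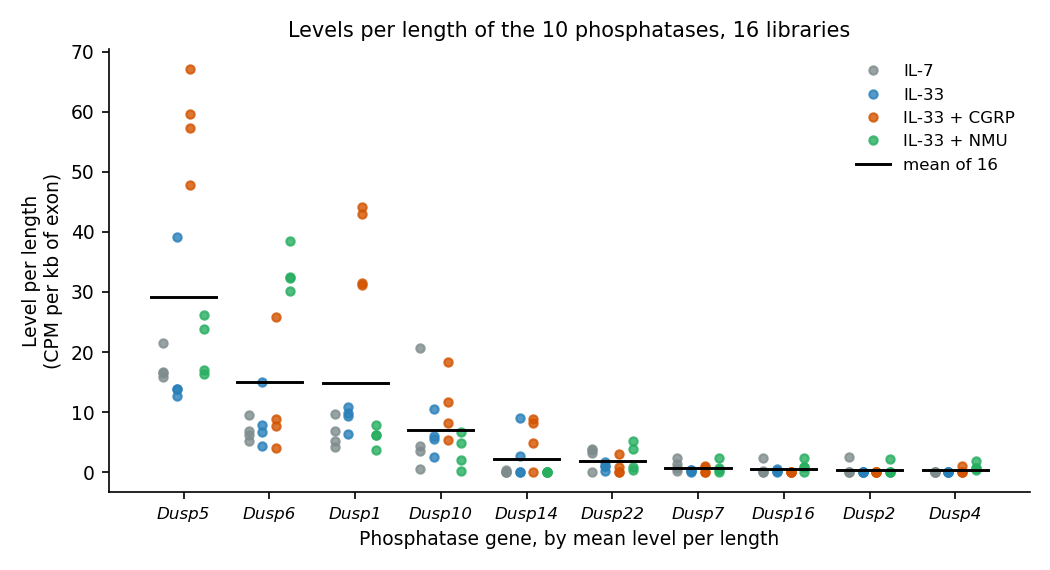
Level per length (CPM per kb of exon) of the 10 phosphatase genes in each of the 16 libraries, colored by treatment, with the mean over all libraries as a black line. Dusp5, Dusp6 and Dusp1 stand above the rest, with CGRP libraries at the top for Dusp5 and Dusp1 and NMU libraries at the top for Dusp6.

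Which of these 3 genes led depended on the stimulus. Dusp6 made up 42.8% to 52.5% of the summed level of the 10 genes in the NMU libraries but 3.89% to 16.5% in the CGRP libraries, where Dusp5 held 42.9% to 55.7% and Dusp1 27.6% to 33.5%. The summed level itself was 103 to 156 CPM per kb with CGRP, 62.4 to 75.9 with NMU, 29.3 to 70.7 with IL-33 and 37.5 to 59.3 with IL-7 alone. By this sum the 4 CGRP libraries lay above all others. The share of counts on mitochondrially encoded genes also moved with treatment, at 8.31% to 12.6% with CGRP, 3.94% to 7.96% with IL-33, 3.32% to 5.54% with NMU and 8.60% to 10.2% with IL-7. Cpa3, a gene of mast cells and basophils, was at 79.1 to 174 CPM in the CGRP libraries and 26.3 to 75.8 CPM in the others, with Mcpt8 and Ms4a2, the other markers of those cells, at or below 0.400 CPM in every library. The part of either in the CGRP values was not tested.

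Dusp1 (chromosome 17, 26505590 to 26562128, minus strand) encodes the phosphatase best known as an immediate early gene that shuts off p38 and JNK. Its promoter and those of Dusp5 and Dusp6 are printed because these 3 genes carry the responses described next. The stretches lie within the window of 250 bases before to 50 after the RefSeq start site and leave out bases that are exon of a protein-coding gene (GRCm38.p6, read in the direction of the gene, 5′ to 3′; Dusp1 chr17:26508520-26508722, minus strand; Dusp5 chr19:53528895-53529108, plus strand; Dusp6 chr10:99262981-99263230, plus strand). Capitals mark matches to the cAMP response element TGACGTCA, its core TGACG, the AP-1 site TGANTCA or the ETS core GGAAGT on either strand; the core lies within the full element.
Dusp1: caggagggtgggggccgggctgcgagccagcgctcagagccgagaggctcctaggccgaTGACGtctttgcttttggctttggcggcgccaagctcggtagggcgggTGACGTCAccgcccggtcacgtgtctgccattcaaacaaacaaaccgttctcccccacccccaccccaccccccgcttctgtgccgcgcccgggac
Dusp5: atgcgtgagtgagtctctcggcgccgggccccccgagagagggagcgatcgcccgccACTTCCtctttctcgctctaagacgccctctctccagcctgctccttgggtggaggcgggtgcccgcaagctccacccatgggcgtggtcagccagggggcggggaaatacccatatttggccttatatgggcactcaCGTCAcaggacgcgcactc
Dusp6: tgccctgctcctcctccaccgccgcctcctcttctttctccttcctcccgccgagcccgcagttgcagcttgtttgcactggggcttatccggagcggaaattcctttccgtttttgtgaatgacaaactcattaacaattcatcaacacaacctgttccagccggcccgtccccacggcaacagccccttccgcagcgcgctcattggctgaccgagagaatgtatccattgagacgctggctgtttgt
The Dusp1 stretch holds a full cAMP response element at position -143 from the start site, and a further core upstream of it. The full element was found in 1.79% of 32851 RefSeq promoter windows, each 250 bases before to 50 after the start site. These windows are longer than the printed stretches. The Dusp5 stretch holds the core on the other strand, CGTCA, at position -55, as do 20.8% of all windows, and an ETS core, as do 23.8%. The Dusp6 stretch holds none of these letters, and AP-1 sites, found in 7.81% of windows, were in none of the 3. Among the other members searched, the core also lay in the windows of Dusp16 (TGACG at position -70) and Dusp2 (CGTCA at position 5). Dusp16 had at most 2 reads in any CGRP library. These are matches of letters and not measured binding sites, and a link between them and the responses was not tested. As background, CGRP acts through a receptor that raises cAMP, and NMU through one that raises calcium and activates ERK.

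CGRP was the stimulus with the highest Dusp1. The WT CGRP libraries had 104 and 103 CPM and the Pac1-/- CGRP libraries 142.5 and 146 CPM. The IL-33 libraries had 36.0 and 21.2 CPM in WT and 32.4 and 31.2 CPM in Pac1-/-, so that no CGRP library came near an IL-33 library. With NMU the levels were 12.2 and 20.4 CPM in WT and 25.9 and 20.7 CPM in Pac1-/-, and with IL-7 alone they were 16.9 and 14.1 CPM and 32.2 and 22.8 CPM. Dusp1 stayed below 40 CPM in all 12 libraries without CGRP. Over both genotypes, Dusp1 rose with CGRP against IL-33 by 2.05 on the log2 scale (SE 0.26; 4.13-fold, 95% interval 2.76 to 6.20; edgeR quasi-likelihood test with Benjamini-Hochberg adjustment, adjusted P = 0.00764). It was called with each library left out in turn, at adjusted P values of 0.00653 to 0.0193. Without both Pac1-/- CGRP libraries, which carried the B cell transcripts, Dusp1 was 1.87 higher on the log2 scale with an adjusted P of 0.308, in a fit of 6 libraries that called 1 gene in all; the other settings gave adjusted P values of 7.44e-11 to 0.0127. The WT CGRP libraries had Ms4a1 at 0 and 11.7 CPM, and the part of the B cell transcripts in the Pac1-/- values was not tested. Of the 8 members tested, 1 (Dusp1) was called in this comparison at a fold change above 1.5 and an adjusted P under 0.05, where 1.75% of the 13160 genes tested were called, 1.53% as higher. Against NMU, Dusp1 was higher with CGRP by 2.68 on the log2 scale (SE 0.27; 6.39-fold, 95% interval 4.20 to 9.73; edgeR adjusted P = 0.00199), and without both Pac1-/- CGRP libraries by 2.69 (adjusted P = 0.0987). The exons of Dusp1 share 11 bases with Ergic1 on the opposite strand, and the use of strand in counting was not given in the sources used here.

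**Figure D2:**
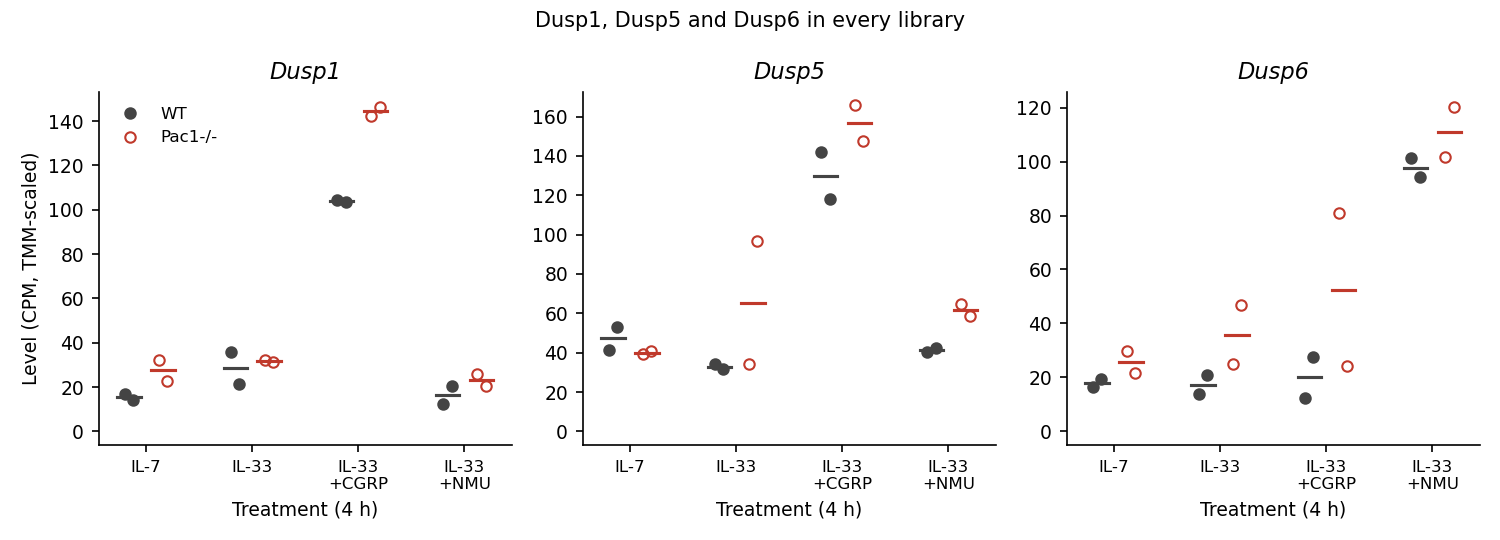
Levels (CPM, TMM-scaled) of Dusp1, Dusp5 and Dusp6 in every library by treatment, with filled points for WT, open points for Pac1-/- and a short line at the mean of each pair. Dusp1 and Dusp5 are highest in the 4 CGRP libraries, Dusp6 is highest in the 4 NMU libraries at 94.4 to 120 CPM, and single Pac1-/- libraries stand above the others for Dusp5 with IL-33 and for Dusp6 with CGRP.

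Dusp5 (chromosome 19, 53529109 to 53542431, plus strand), the ERK phosphatase of the nucleus, was also highest with CGRP. The WT CGRP libraries had 142 and 118 CPM and the Pac1-/- CGRP libraries 166 and 147 CPM. The IL-33 libraries had 34.2 and 31.5 CPM in WT, and 34.3 and 96.7 CPM in Pac1-/-. The groups did not overlap, although the second Pac1-/- IL-33 library lay far above the other 3 of its treatment. NMU libraries had 40.3 and 42.2 CPM in WT and 64.8 and 58.8 CPM in Pac1-/-, and IL-7 libraries had 41.4, 53.2, 39.2 and 40.9 CPM in the same order. Outside CGRP, that IL-33 library was the only 1 above 65 CPM. Against NMU, Dusp5 rose with CGRP by 1.52 on the log2 scale (SE 0.21; 2.88-fold, 95% interval 2.08 to 3.99; edgeR adjusted P = 0.00661), and it was called with each library left out in turn. Without both WT NMU libraries the difference was 1.34 on the log2 scale (adjusted P = 0.116), and without both Pac1-/- CGRP libraries it was 1.68 (adjusted P = 0.111). Against IL-33 the difference was 1.64 on the log2 scale (SE 0.36; 3.12-fold, 95% interval 1.78 to 5.46) and missed the threshold at an adjusted P of 0.0630. Without the second Pac1-/- IL-33 library it was 2.09 with an adjusted P of 0.00479, and the adjusted P ranged from 0.000447 to 0.332 over the other settings. An antisense gene, AC137853.2, shares 547 exon bases with Dusp5 on the opposite strand.

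Dusp6 (chromosome 10, 99263231 to 99267489, plus strand), the ERK phosphatase of the cytoplasm, had its highest levels with NMU. The NMU libraries had 101 and 94.4 CPM in WT and 102 and 120 CPM in Pac1-/-. The IL-33 libraries had 13.7 and 20.7 CPM in WT and 24.8 and 46.8 CPM in Pac1-/-, and the groups did not overlap. The CGRP libraries had 12.5 and 27.5 CPM in WT and 80.8 and 24.1 CPM in Pac1-/-, and the IL-7 libraries 16.5, 19.2, 29.7 and 21.5 CPM in that order. Only the first Pac1-/- CGRP library came close to the NMU levels. With NMU against IL-33, Dusp6 was 2.07 higher on the log2 scale (SE 0.34; 4.20-fold, 95% interval 2.51 to 7.04), at an adjusted P of 0.0623 just outside the threshold. It passed the threshold with each of the 8 libraries left out in turn (adjusted P = 0.00769 to 0.0491), in DESeq2, without the filter on low counts and with at least 10 counts required in every library. Without both WT NMU libraries, which carried the epithelial transcripts and Lyz2, the difference was 1.62 with an adjusted P of 0.504. The Pac1-/- NMU libraries had Sftpc at 0.191 and 0 CPM and Lyz2 at 0. The part of the epithelial transcripts and Lyz2 in the WT NMU values was not tested. None of the 9 members tested passed in the fit with all 8 libraries, where 0.103% of 12567 genes were called. Of the 9, 3 had an unadjusted P under 0.05 in edgeR (Dusp4, Dusp6 and Dusp14), and DESeq2 called the same 3. Over all genes, 972 of the 12567 had an unadjusted P under 0.05 in edgeR, and DESeq2 called 169. With CGRP against NMU, the Dusp6 difference was -1.66 on the log2 scale (fold 0.316, 95% interval 0.151 to 0.661; adjusted P = 0.0961). Without the first Pac1-/- CGRP library that difference was -2.26 with an adjusted P of 0.0125, and with any other library left out it was not called. With all 8 libraries kept, the call also turned on the fit: Dusp6 was called by DESeq2 (adjusted P = 0.00600), without the filter on low counts (0.00126), with at least 10 counts in every library (0.0330) and in the fit of all 16 libraries (0.0328). Without both WT NMU libraries the adjusted P was 0.536.

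IL-33 alone moved none of these genes past the threshold. Dusp1 was 0.55 higher with IL-33 than with IL-7 on the log2 scale (95% interval -0.28 to 1.37), Dusp6 was 0.22 higher (-0.66 to 1.10) and Dusp5 was 0.10 higher (-0.82 to 1.02). The intervals leave room for changes of about 2-fold in each of them. Of the 8 members tested, 0 were called by edgeR or by DESeq2 and 0 had an unadjusted P under 0.05, where 0.0462% of 12980 genes were called. In the comparison of CGRP with NMU, 2 of the 9 members tested were called, both higher with CGRP, against 3.86% of 12834 genes in either direction and 2.42% higher. The comparisons share the IL-33, CGRP or NMU libraries and are not independent of each other.

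**Figure D3:**
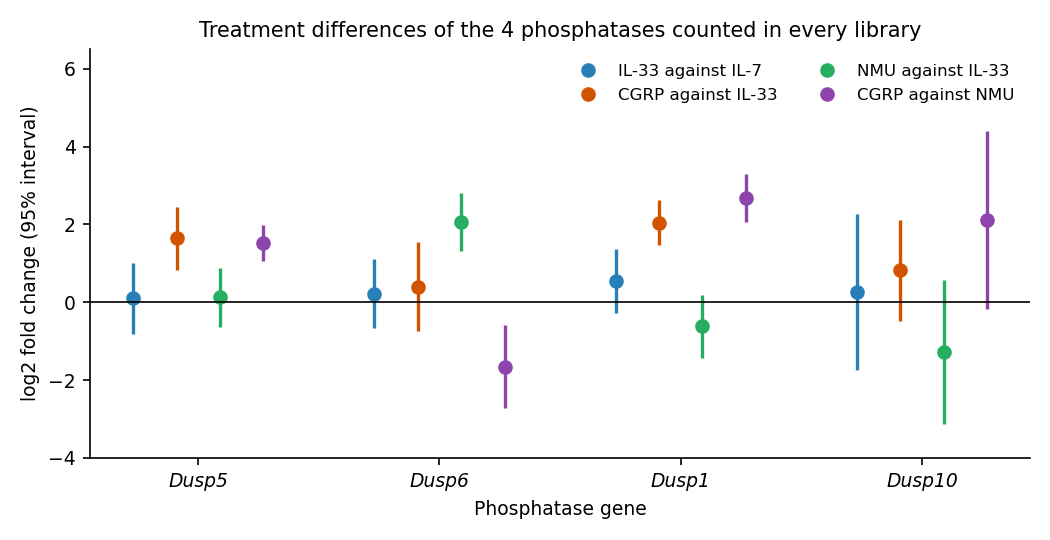
Fitted log2 fold changes between treatments, over both genotypes and 4 libraries against 4, for the 4 phosphatase genes counted in every library, with 95% intervals as vertical lines. Dusp1 and Dusp5 lie above 0 in both comparisons with CGRP first, Dusp6 lies at 2.07 with NMU against IL-33, and the intervals of Dusp10 cross 0 in all 4 comparisons.

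Dusp4 and Dusp7 complete the group that acts on ERK. Dusp4 (chromosome 8, 34807297 to 34819894, plus strand), a nuclear enzyme close to DUSP1 and PAC1, had 34, 7, 18 and 23 reads in the 4 NMU libraries (WT, then Pac1-/-), or 5.23, 0.779, 1.72 and 2.07 CPM. It had no read in any IL-33 library, 1 read in 1 IL-7 library and 26 reads in 1 Pac1-/- CGRP library. NMU was the only treatment in which every library reached 3 counts, and the mean was at least 10.5-fold higher than the floor of the IL-33 libraries, but Dusp4 was not called against IL-33 (edgeR adjusted P = 0.413). DESeq2 called it at an adjusted P of 0.0307, and the edgeR alternatives gave 0.178 to 0.812. Dusp7 (chromosome 9, 106368632 to 106375724, plus strand) ranged from 0 to 8.02 CPM. Its highest levels were in the first WT IL-7 library (7.99 CPM) and the first Pac1-/- NMU library (8.02 CPM), and its ranges overlapped between all treatments.

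The phosphatases of p38 and JNK varied widely between replicates. Dusp10 (chromosome 1, 184013302 to 184075636, plus strand) was counted in all libraries, yet ranged from 0.478 CPM in the first Pac1-/- NMU library to 62.95 CPM in the second WT IL-7 library. Its mean was 10.5 ± 8.95 CPM with NMU, 18.7 ± 9.89 with IL-33, 22.2 ± 27.6 with IL-7 and 33.2 ± 17.2 with CGRP (SD, n = 4 each), and the ranges overlapped in every pair of treatments. Dusp16 (chromosome 6, 134715468 to 134792625, minus strand) had 2, 0, 1 and 0 reads in the CGRP libraries. In the IL-33 libraries it had 13, 46, 14 and 26 reads and in the NMU libraries 0, 170, 75 and 81 reads (WT, then Pac1-/-). The CGRP and IL-33 groups did not overlap, but Dusp16 was called neither against IL-33 (adjusted P = 0.251) nor against NMU (adjusted P = 0.117). DESeq2 and the fit without a filter on low counts called it against NMU, at adjusted P values of 0.00346 and 0.0123, and the highest adjusted P over the alternatives was 0.605, with a library left out.

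The atypical members were counted unevenly, both between the libraries of a pair and between groups. Dusp14 (chromosome 11, 84048041 to 84069261, minus strand) had 105, 158, 0 and 124 reads in the CGRP libraries and none in the 4 NMU libraries. With IL-33 it had 237, 0, 90 and 2 reads, and with IL-7 9 reads in 1 library only. The mean with CGRP, 10.7 ± 7.91 CPM, was at least 31.5-fold higher than the NMU floor, yet a CGRP library was itself at 0, and the adjusted P was 0.119. DESeq2 and the fit without a filter called this difference at adjusted P values of 0.000349 and 0.000122, and the highest over the alternatives was 0.353. Dusp22 (chromosome 13, 30659999 to 30711231, plus strand) had 0 and 0 reads in the WT CGRP libraries and 46 and 122 reads in the Pac1-/- CGRP libraries. It reached 3 counts in both libraries of the other groups, except with IL-7 in Pac1-/-, where the libraries had 1 and 251 reads. Other pairs of Dusp22 were uneven too, with 115 and 14 reads in WT IL-33, 28 and 179 in WT NMU and 282 and 19 in Pac1-/- NMU. The pairs were closer in WT IL-7 (280 and 180 reads) and Pac1-/- IL-33 (97 and 69 reads).

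**Figure D4:**
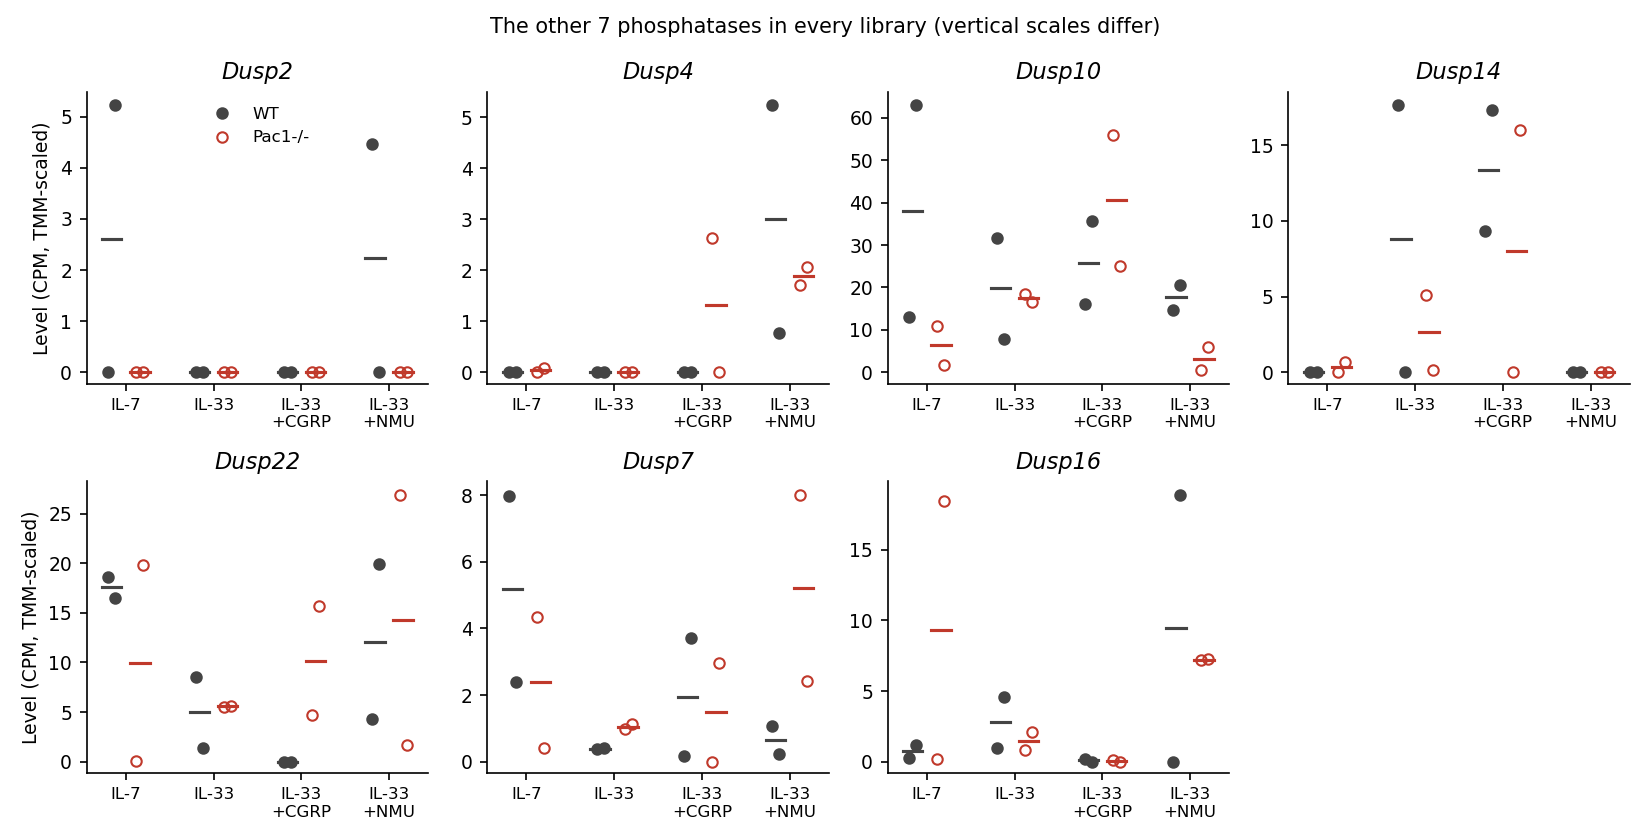
Levels (CPM, TMM-scaled) of the other 7 phosphatase genes in every library by treatment, with filled points for WT, open points for Pac1-/- and a short line at the mean of each pair; the vertical scales differ. The 2 points of a pair often differ by as much as the treatments, Dusp2 is above 0 in 2 WT libraries only, Dusp4 is above 0 in all 4 NMU libraries and Dusp14 is at 0 in all of them.

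Loss of Dusp2 came with no called difference in any of the other phosphatases within a treatment. With IL-7, 0 of 7 members tested were called, against 0.00916% of 10912 genes. With IL-33, 0 of 8 were called, against 0.00874% of 11448 genes. With NMU, 0 of 8 were called, against 0.0282% of 10621 genes, and in none of these 3 treatments did a member have an unadjusted P under 0.05 or a call by DESeq2. With CGRP, 0 of 7 were called by edgeR, which called 0.0% of 10912 genes and gave 822 of them an unadjusted P under 0.05. There Dusp22 had an unadjusted P of 0.0168 (adjusted P = 0.552) and was called by DESeq2 (adjusted P = 0.0303, against 0.376 to 1.0 in the edgeR settings). DESeq2, the tool of the study, called 203 genes in that comparison. The Pac1-/- mean of Dusp22 with CGRP, 10.2 ± 7.82 CPM (SD, n = 2), was at least 34.2-fold above the floor of the WT libraries. These are the libraries with B cell transcripts, whose part in the Dusp22 counts was not tested.

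None of the 4 genes counted in every library was called within a treatment, and where WT and Pac1-/- libraries did not overlap, Dusp5 and Dusp10 included cases lower in Pac1-/-. Dusp1 was higher in both Pac1-/- libraries than in both WT libraries with IL-7, CGRP and NMU, with group means of 27.5 against 15.5 CPM, 144.5 against 104 CPM and 23.3 against 16.3 CPM. With IL-33 the means were 31.8 and 28.6 CPM and the libraries overlapped. Dusp6 was higher in both Pac1-/- libraries with IL-7 (25.6 against 17.9 CPM), IL-33 (35.8 against 17.2 CPM) and NMU (111 against 97.8 CPM), and overlapped with CGRP. Dusp5 was higher in both Pac1-/- libraries with IL-33 (65.5 against 32.9 CPM, its second Pac1-/- library at 96.7 CPM), CGRP and NMU, and lower in both with IL-7 (40.1 against 47.3 CPM). Dusp10 was lower in both Pac1-/- libraries with IL-7 (10.98 and 1.66 against 13.05 and 62.95 CPM) and NMU (means of 3.25 against 17.7 CPM), and overlapped with IL-33 and CGRP. Each group holds 2 libraries, and none of these within-treatment differences had an unadjusted P under 0.05. How many of all genes separate in this way was not counted. These separations are therefore descriptive, and no rise with genotype is read from them.

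Over the 4 treatments, with 8 Pac1-/- against 8 WT libraries and treatment as a covariate, none of the 10 members was called by edgeR or DESeq2, where 0.0801% of 14979 genes were called, 0.0467% as higher. Dusp6 was 0.79 higher in Pac1-/- on the log2 scale (SE 0.29; 1.73-fold, 95% interval 1.13 to 2.64), with an unadjusted P of 0.0152 and an adjusted P of 0.803. Dusp1 was 0.49 higher (SE 0.20; 1.41-fold, 95% interval 1.06 to 1.87), with an unadjusted P of 0.0229 and the same adjusted P. Dusp5 was 0.40 higher (SE 0.22; 1.32-fold, 95% interval 0.954 to 1.83), with an unadjusted P of 0.0888. The upper bounds of these 3 intervals lay between 1.83-fold and 2.64-fold, and none of the 3 genes passed the correction over all genes. Without both Pac1-/- CGRP libraries Dusp6 was 0.59 higher and Dusp1 0.50 higher, and without both WT NMU libraries they were 0.99 and 0.48 higher. The estimate for Dusp10 was -1.14 (95% interval -2.61 to 0.34; adjusted P = 0.890). For Dusp4, Dusp7, Dusp14, Dusp16 and Dusp22 the lower bounds were 0.110- to 0.419-fold and the upper bounds 8.55- to 29.2-fold, too wide to tell an increase from a decrease. Leaving out Dusp2, whose direction the deletion fixes, 7 of the 9 estimates were above 0 and 2 below, with a median of 0.49 on the log2 scale, against 0.03 over all genes tested. One of the 2, Dusp14 at -0.023, turned to 0.016 in DESeq2 and 0.644 in the fit of all 16 libraries. In the other direction, Dusp7 at 0.67 turned to -0.07 without both WT NMU libraries. Dusp22 at 0.854 turned to -0.136 without both Pac1-/- CGRP libraries, where Dusp14 was at 0.585. The tally of signs therefore depends on the fit. In the lists of related genes described below, 7 of 9 other dual-specificity phosphatases and 7 of 8 tyrosine phosphatases were also above 0. Of the MAPKs and their kinases, 9 of 16 were. How many of all genes lay above 0 was not counted, and no lean particular to the 10 genes is read from the tally.

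**Figure D5:**
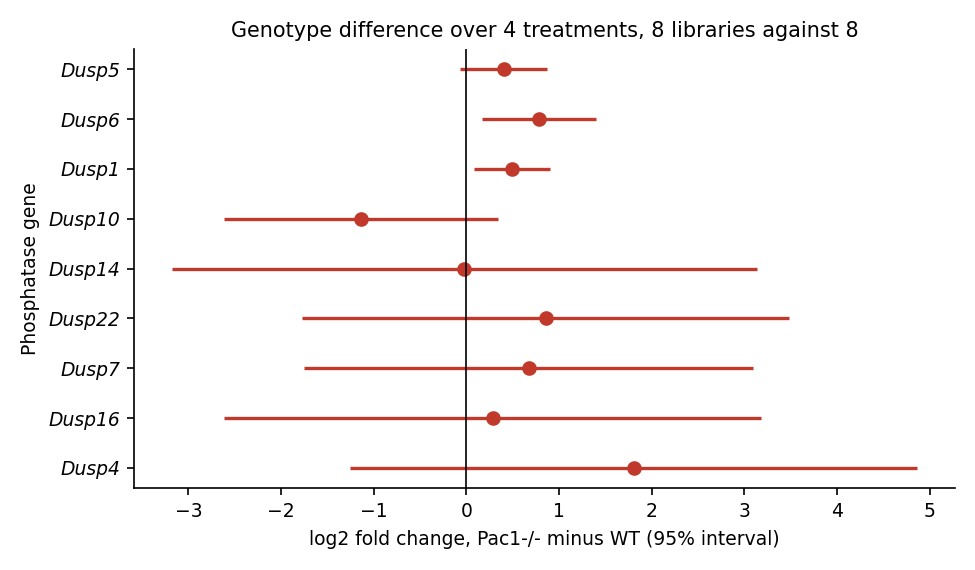
Fitted log2 fold change between Pac1-/- and WT over the 4 treatments (8 libraries against 8) with 95% intervals, for 9 phosphatase genes in order of their level per length; Dusp2 is left out because its Pac1-/- libraries are all at 0. The intervals of Dusp1 and Dusp6 lie above 0, that of Dusp5 crosses it, and those of the low genes span several log2 units.

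Whether the response to a stimulus differed by genotype was tested as an interaction. No member and no gene was called for IL-33 (8 members and 12980 genes tested, 0.0% called), CGRP (8 and 13160, 0.0%) or NMU (9 and 12567, 0.0%). DESeq2 called 0 members in each, and the only member with an unadjusted P under 0.05 was Dusp22 in the CGRP interaction (edgeR adjusted P = 0.853). In that interaction 719 of the 13160 genes tested had an unadjusted P under 0.05 in edgeR. The CGRP response of Dusp1 was 0.30 larger in Pac1-/- than in WT on the log2 scale (95% interval -0.91 to 1.5), and that of Dusp5 differed by -0.76 (95% interval -2.34 to 0.81). The NMU response of Dusp6 differed by -0.91 (95% interval -2.26 to 0.45). Each of these intervals holds both no difference and a 2-fold difference between genotypes.

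Related genes were read from 3 lists, for CGRP against NMU beside the 3.86% of all genes called. Of the 17 other dual-specificity phosphatases 8 could be tested for CGRP against NMU, and 1 was called, Dusp23, a small atypical enzyme, with 0, 0, 1 and 0 reads in the CGRP libraries and 30, 106, 98 and 49 reads in the NMU libraries (adjusted P = 0.0321). Among 17 MAPKs and MAPK kinases 14 were tested, and the called gene was Map2k3, an activating kinase of p38, at 33.4 ± 5.69 CPM with CGRP and 97.1 ± 14.8 CPM with NMU (SD, n = 4; adjusted P = 0.0165). Among 9 tyrosine phosphatases 8 were tested, and Ptprc, which encodes CD45, was called, at 1134 ± 87.3 and 1879 ± 151 CPM (adjusted P = 0.0361). All 3 were lower with CGRP. None of the 3 calls held in the fits of 6 libraries: without both WT NMU libraries the adjusted P was 0.318 for Dusp23, 0.193 for Map2k3 and 0.105 for Ptprc, and without both Pac1-/- CGRP libraries it was 0.149, 0.149 and 0.296. With each of the 8 libraries left out in turn, Dusp23 was called in 0 fits (adjusted P = 0.0501 to 0.0845), Map2k3 in 5 (0.0308 to 0.0828) and Ptprc in 1 (0.0208 to 0.144). No gene of the 3 lists was called in any other comparison, genotype included. For genotype over all treatments the median estimates were 0.39 over 9 other dual-specificity phosphatases, 0.05 over 16 MAPKs and their kinases, and 0.17 over 8 tyrosine phosphatases, against 0.03 over all genes.

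For the 4 members averaging at least 20 CPM, the genes with the most similar pattern were sought over the 16 libraries by Pearson's r of log2 CPM, among 4878 genes at that level. Dusp1 was followed most closely by Junb (r = 0.947), Gm24265 (0.936) and Bambi (0.934). Dusp5 was followed most closely by Junb (r = 0.930), Nfkbiz (0.919) and Ccnl1 (0.902). Junb, which encodes a subunit of AP-1, averaged 345 CPM with CGRP and 27.9 to 40.8 CPM with the other treatments. Dusp6 was nearest to the chemokine gene Cxcl3 (r = 0.868), which averaged 1345 CPM with NMU and 209 to 294 CPM otherwise, then Gm9118 (0.842) and the adhesion receptor gene Cd44 (0.840). Dusp10 had Lnpep (0.820), Arntl (0.817) and Ctsh (0.808). These r describe libraries that share treatments, scaling and sorting, and nothing about control of these genes was read from them.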

How the data were processed

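Bulk mRNA-Seq was analyzed for 16 libraries of lung ILC2s, 2 for each combination of genotype and treatment. The authors amplified full-length cDNA from about 500 sorted cells, sequenced paired-end reads, aligned them to mm10 with HISAT2 and deposited raw read counts per gene, without normalization; the counting tool, annotation and use of strand were not given in the sources used here. Libraries were assigned from the sample labels, and every column was mapped. Totals of 6764992 to 15963357 counts set a floor of 3 counts per library at 0.170 to 0.462 CPM.

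Counts were tested in R 4.3.3 with edgeR 4.0.16 (TMM, filterByExpr by group, quasi-likelihood test, Benjamini-Hochberg adjustment over all genes tested) on the libraries of each comparison. A call needed a fold change above 1.5 and an adjusted P value under 0.05. The study used the same cutoff but with DESeq2, so the edgeR calls are not made as in the study. Genotype was compared within each treatment and over all 16 libraries with treatment as covariate, treatments were compared over both genotypes with genotype as covariate, and interactions of genotype with each stimulus were tested. The detection of Dusp2 used Fisher's exact test (scipy 1.17.1). Levels per length used the union of exons in the reference annotation, and promoters came from RefSeq (GRCm38.p6), where 9 of the 10 genes were matched. Similar genes were ranked on log2 CPM, to which a prior count of 2 was added.

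The 10 genes and the lists were chosen with earlier results of these data known. Genes named are the 10, the called genes of the related lists (up to 4 per list and comparison), the 3 most similar genes of each member averaging at least 20 CPM, and marker genes. Alternatives were DESeq2 1.42.0, a single fit of all 16 libraries, each library left out in turn, a block for the replicate number, RLE in place of TMM, a call by adjusted P without a fold, and either no filter or a minimum of 10 counts per library; leaving out both WT NMU or both Pac1-/- CGRP libraries was chosen after seeing the data. Where 1 library was left in a group, it is assumed to vary like the others. The tests were tested on simulated counts with 200 genes changed 2-fold or 4-fold: modeled on CGRP against IL-33 (13160 genes), edgeR called 17% of the genes changed 4-fold and DESeq2 38%, with 10.5% and 60.8% of all calls on unchanged genes. Modeled on genotype within CGRP (10912 genes), edgeR called 7% of those changed 4-fold and 0% of those changed 2-fold. Modeled on genotype over all 16 libraries (14979 genes), edgeR called 24% of those changed 4-fold and 6% of those changed 2-fold. A missing call is therefore weak evidence, both at 2 libraries per group and over all 16 libraries. Because the simulation used dispersions from edgeR, it favors edgeR.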

Additional observations from a re-analysis of the deposited data

Results flagged for a closer look

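Within the 4 libraries of a treatment, the highest or lowest library was compared with the rest by Dixon's criterion at 95%, and 8 of 34 sets of values were flagged, where chance flags about 1 in 20 sets. These sets pool both genotypes, and genes with zeros in 3 libraries are flagged by any count in the fourth. Dusp2 was flagged for the second WT IL-7 library (5.22 CPM) and for the first WT NMU library (4.46 CPM), the only libraries in which it was counted. Dusp5 was flagged for the second Pac1-/- IL-33 library (96.7 CPM), which also had the highest Gata3 level, and for the second WT IL-7 library (53.2 CPM). Dusp4 was flagged for the first Pac1-/- CGRP library (2.63 CPM), the library in which Dusp6 also stood highest among the CGRP libraries, at 80.8 CPM. In IL-7 libraries Dusp14 (0.712 CPM) and Dusp16 (18.4 CPM) were flagged for the second Pac1-/- library and Dusp22 (0.0871 CPM, 1 read) for the first Pac1-/- library.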

How the results depend on the processing

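Over the settings other than leaving out a library, 658 values of a member in a comparison kept their direction and their side of the threshold, 20 passed it only under the alternative, 4 passed it only in the reported fit, and 14 changed sign, none of the last in a called result. The levels per gene moved by less than their SD under plain totals or the longest transcript as length. Fisher's exact test of Dusp2 detection gave P = 0.2 to 0.467 with a library left out, and none of these splits could give a P below 0.2.

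The count of called members changed as follows, the calls being those of a fold change above 1.5. DESeq2 called 1 member for genotype with CGRP (0 in the edgeR fit), 2 for CGRP against IL-33 (1), 3 for NMU against IL-33 (0) and 6 for CGRP against NMU (2). Without the filter on low counts the last 3 were 2, 2 and 5. With at least 10 counts in every library, 2 were called for CGRP against IL-33, 1 for NMU against IL-33 and 3 for CGRP against NMU, and with all 16 libraries in 1 fit 2 were called for CGRP against IL-33 and 3 for CGRP against NMU; the third was Dusp6 in both. Without both Pac1-/- CGRP libraries, 0 were called for CGRP against IL-33 and 0 for CGRP against NMU, and without both WT NMU libraries 1 was called for CGRP against NMU; these fits hold 6 libraries. With a library left out, 1 to 2 were called for CGRP against IL-33, 1 for NMU against IL-33 and 2 to 4 for CGRP against NMU. The 4 came without the first Pac1-/- CGRP library and added Dusp6 and Dusp14. The causes were not tested.

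Over all genes, edgeR called 1, 1, 0, 3 and 12 for genotype with IL-7, IL-33, CGRP, NMU and over all treatments, DESeq2 78, 65, 203, 66 and 77, and the fit without a filter 28, 18, 82, 32 and 62. For IL-33 against IL-7, CGRP against IL-33, NMU against IL-33 and CGRP against NMU, edgeR called 6, 230, 13 and 495, DESeq2 423, 1083, 169 and 1691, the fit without a filter 201, 639, 77 and 1102, and the fit with at least 10 counts in every library 10, 465, 27 and 859. For the interactions with IL-33, CGRP and NMU these were 0 in edgeR, 64, 113 and 37 in DESeq2 and 20, 44 and 20 without a filter. With at least 10 counts in every library, genotype gave 2, 6 and 1 for IL-7, IL-33 and NMU. All 16 libraries in 1 fit gave 16 for genotype with CGRP and 413, 28 and 820 for CGRP against IL-33, NMU against IL-33 and CGRP against NMU. Without both Pac1-/- CGRP libraries CGRP against IL-33 gave 1 and CGRP against NMU 2, and without both WT NMU libraries NMU against IL-33 gave 5 and CGRP against NMU 79.

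The replicate number was shared by the groups only as a number. Same-numbered libraries of a treatment correlated at -0.031 to 0.221 in their deviations from the group means over 4 treatments, and not every pair was above 0.1. With the replicate number as a block no call of a member changed, Dusp23 and Ptprc were no longer called for CGRP against NMU (adjusted P = 0.0588 and 0.0556), the count of genes for genotype with IL-7 went from 1 to 0, and these signs changed on the log2 scale: Dusp10 0.16 for genotype with IL-33, Dusp16 1.85 and Dusp22 -0.42 for genotype with NMU, Dusp16 0.43 for IL-33 against IL-7, Dusp7 -0.027 for CGRP against IL-33 and Dusp22 -1.26 for the interaction with NMU.

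Other changes of sign were all in uncalled differences. Without both WT NMU libraries these were Dusp7 at -0.070 for genotype over all treatments and Dusp5 at -0.097 for NMU against IL-33. Without both Pac1-/- CGRP libraries they were Dusp14 at 0.585 and Dusp22 at -0.136 for genotype over all treatments and Dusp7 at 1.59 for CGRP against NMU. For Dusp14 over all treatments DESeq2 gave 0.016 and the fit of all 16 libraries 0.644, and for Dusp22 in the interaction with NMU the fit with at least 10 counts gave -0.005. With a library left out, the log2 differences that changed sign ranged as follows. For genotype with IL-7 Dusp16 -2.01 to 5.09, Dusp22 -7.50 to 0.18, Dusp7 -3.67 to 0.005. For genotype with IL-33 Dusp1 -0.15 to 0.58, Dusp10 -0.83 to 1.16, Dusp14 -5.65 to 8.13, Dusp16 -1.78 to 0.61, Dusp22 -0.59 to 1.98. For genotype with CGRP Dusp10 -0.045 to 1.30, Dusp14 -10.07 to 0.26, Dusp7 -7.30 to 2.95. For genotype with NMU Dusp16 -1.39 to 9.08, Dusp22 -2.81 to 1.73, Dusp4 -1.46 to 1.27. For genotype over all treatments Dusp14 -1.09 to 2.25, Dusp16 -0.86 to 1.43. For IL-33 against IL-7 Dusp10 -0.35 to 1.11, Dusp16 -1.45 to 2.31, Dusp5 -0.39 to 0.28, Dusp6 -0.039 to 0.38. For CGRP against IL-33 Dusp14 -0.84 to 3.07, Dusp6 -0.091 to 0.62, Dusp7 -0.08 to 1.98. For NMU against IL-33 Dusp5 -0.076 to 0.53. For CGRP against NMU Dusp7 -1.79 to 0.72. For the interaction with IL-33 Dusp14 -10.86 to 2.88, Dusp16 -5.99 to 1.07. For the interaction with CGRP Dusp1 -0.14 to 0.65, Dusp10 -0.55 to 1.5, Dusp14 -8.62 to 4.87, Dusp16 -2.33 to 3.47, Dusp5 -1.34 to 0.18, Dusp6 -0.80 to 1.0, Dusp7 -8.98 to 1.54. For the interaction with NMU Dusp1 -0.066 to 0.76, Dusp14 -7.87 to 5.63, Dusp16 -1.01 to 10.30, Dusp22 -3.02 to 1.55, Dusp4 -1.47 to 1.25, Dusp5 -1.0 to 0.52. Dusp2, Dusp4, Dusp7, Dusp14, Dusp16 and Dusp22 had 0 to 3 counts in at least 1 library each, and at this depth values under the floor cannot be told from absence.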
